A study of Rattus norvegicus with 16 samples.

Results

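Lifr, Socs3, Grb14 and Thra are 4 signalling genes that were read on 16 arrays of the rat extensor digitorum longus (EDL), a shin muscle made mostly of fast fibres. They were chosen by gene symbol, and each symbol was carried by 1 probe, so the genes are represented by 4 of the 1176 probes tested. The arrays came from 8 EDL muscles labelled as denervated for 2 months and from 8 labelled as control, all from Brown Norway rats aged 6 months. No genetic change or drug is named for either group. The labels do not say how the nerve supply was removed, whether a control muscle came from an operated animal, or whether a rat number used in both groups marks the same animal. Rats are numbered 1 to 8 in each group, and each array was taken as 1 rat. Since separate animals are not stated beyond these numbers, the p-values measure the spread between arrays.

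The 4 genes act in different hormone and cytokine pathways that reach muscle. Lifr encodes the receptor chain that binds leukaemia inhibitory factor and, together with the shared chain gp130, passes the signals of several related cytokines to JAK kinases and STAT transcription factors. Socs3 is a target of those STAT factors, and its product binds the receptor complex and the JAK kinases to shut the signal down. Grb14 encodes an adaptor protein that docks on the activated insulin receptor and inhibits its kinase. Thra encodes a nuclear receptor for thyroid hormone, the form that predominates in skeletal muscle, where thyroid hormone sets contractile and metabolic gene expression.

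In GRCr8, the RefSeq rat assembly, Lifr lies on chromosome 2 (57951787 to 58020357, plus strand) and Grb14 on chromosome 3 (69976331 to 70091921, minus strand). Thra (84198141 to 84225659, plus strand) and Socs3 (103692579 to 103695975, minus strand) both lie on chromosome 10. The end of Thra shares 1061 bases with Nr1d1, the gene of the nuclear receptor Rev-erb alpha, which is read from the opposite strand. The position of the Thra probe within the gene, and the splice form it detects, are not known here.

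The sequences upstream of Grb14 and Thra are shown because these members had the 2 largest positive differences, varied together over the arrays and have starts that leave the window outside the gene. Neither difference passed (limma, adjusted p = 0.205 and 0.410). Their r over 16 arrays was 0.67, but 0.20 in rats 5 to 8 and 0.43 in rats 1 to 4. The choice used these same data, so the sequences are shown as description only. Each is the 250 bases before the start in RefSeq, GRCr8, 5′ to 3′ on the strand of the gene, at chr3:70091922-70092171 (minus) and chr10:84197891-84198140 (plus). Capitals mark GGGCGG or its reverse complement, the GC box, a motif known to be bound by Sp1-type factors.
Grb14: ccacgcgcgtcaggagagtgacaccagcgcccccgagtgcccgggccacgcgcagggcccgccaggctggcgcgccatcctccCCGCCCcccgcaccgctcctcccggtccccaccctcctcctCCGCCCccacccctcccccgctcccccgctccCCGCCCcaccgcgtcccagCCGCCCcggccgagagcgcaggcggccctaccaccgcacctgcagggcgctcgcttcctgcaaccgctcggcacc
Thra: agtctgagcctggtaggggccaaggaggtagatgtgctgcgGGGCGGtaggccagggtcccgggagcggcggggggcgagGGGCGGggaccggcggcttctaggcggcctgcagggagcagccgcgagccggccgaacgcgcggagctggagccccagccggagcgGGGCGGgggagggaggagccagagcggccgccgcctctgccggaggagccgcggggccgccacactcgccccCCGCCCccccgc
Each window holds 4 GC boxes. At least 1 on either strand is held by 30.5% of 33465 rat promoter windows of the same length, and the share with 4 was not counted. The G and C contents of the Grb14 and Thra windows are 80% and 79.6%, where the median of all windows is 51.2%. Windows this rich in G and C were not compared separately. The window before an annotated start of Lifr holds 1 GC box, while that of Socs3 and that of a further start of Thra hold none. These windows lie inside the spans of their genes. The bases before the outer ends of Lifr and Socs3 were not searched. Neither TTCNNNGAA, the form of STAT sites, nor AGGTCA, the half-site of thyroid hormone receptors, was found on either strand in the windows searched for the 4 genes. These are held by 7.67% and 14.1% of all windows. Such matches describe letters in these windows only.

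The deposited values are a score that spreads like logarithms, with a base that no label states. Values and differences are therefore in log units, with differences always denervated minus control, and no fold change is given. Array medians lay between 7.97 and 8.60 on 15 arrays, and at 6.98 on that of control rat 6. Each difference of the 4 genes is therefore also given after the median of each array was subtracted, which is called centring here. The lowest value of an array, called its floor, was repeated on 22 to 206 probes and bounds what the array could read. None of the 4 genes was at the floor on any array. Neither was the insulin gene Ins1, at 6.03 to 7.90 in denervated and 6.90 to 8.24 in control muscle. Whether a value above the floor marks a detected transcript was not tested. Of 20 listed markers of skeletal muscle, 4 were measured (Ckm, Mylk2, Cacna1s and Pgam2), and all were above the floor on all 16 arrays.

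None of the 4 genes passed the test between denervated and control muscle, whichever array scaling was used. Benjamini-Hochberg adjusted p-values under 0.05 in limma counted as changes, and 6.29% of the 1176 probes passed by this rule, 5.44% as higher and 0.85% as lower. Grb14 had the largest difference in means, at 0.98, followed by Thra at 0.65 and Socs3 at 0.36, and Lifr stood at -0.62. The smallest adjusted p among them was that of Grb14. Whole muscle was measured, so fewer cells of a type and less RNA per cell cannot be told apart. Before adjustment 1 of the 4 had a p under 0.05, where 17.9% of all probes did, and by exact permutation none passed after adjustment, where 5.7% of all probes did. After centring 4.25% of all probes passed (35 higher and 15 lower, where 64 and 10 passed as deposited), and none of the 4 genes. After quantile normalisation 5.27% passed (35 higher and 27 lower), and again none of the 4 genes. The median difference over all probes was 0.22 as deposited and 0.01 after centring, so centred differences are relative to that shift of the whole array.

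**Figure D1:**
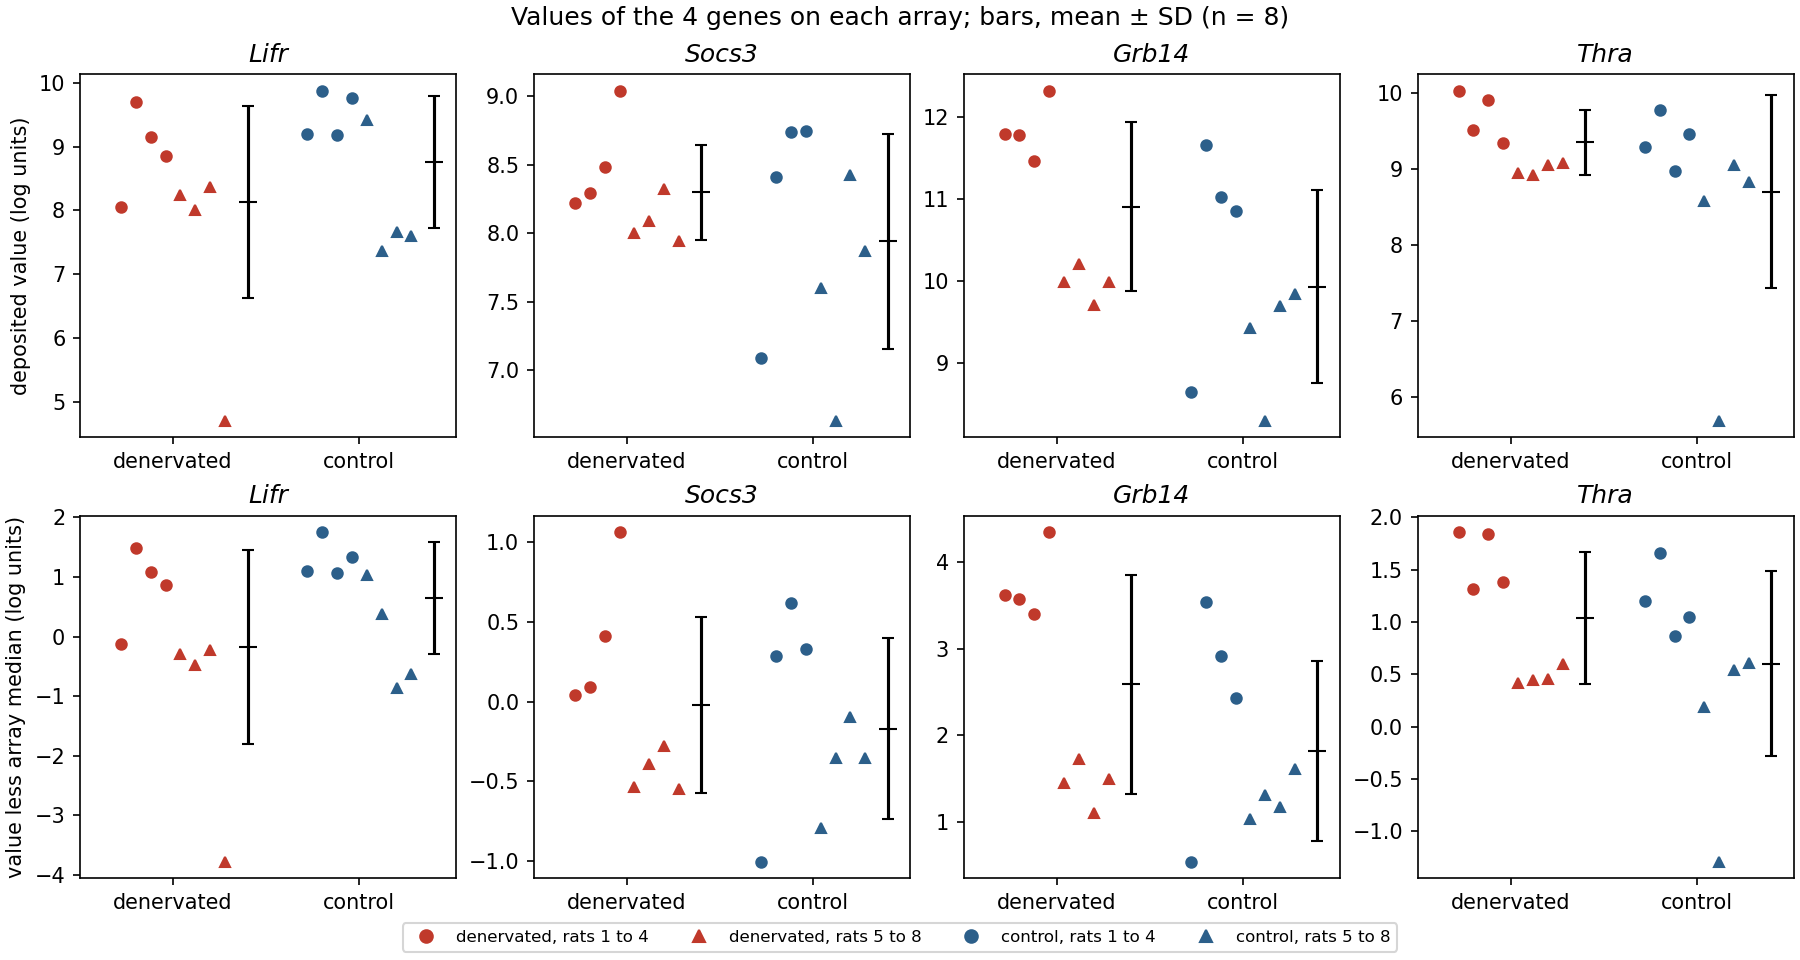
Values of Lifr, Socs3, Grb14 and Thra on each array, as deposited (top, log units) and less the array's median (bottom, log units), with denervated muscle left of control, rats in the order 1 to 8, circles for rats 1 to 4 and triangles for rats 5 to 8; black bars are the mean ± SD of 8 arrays. The groups overlap for all 4 genes, and 1.28% of all probes have groups that do not. Lifr on denervated rat 8 (4.70) and Thra on control rat 6 (5.69) stand far below their groups, and Grb14 in denervated muscle forms 2 separate bands, 9.70 to 10.21 in rats 5 to 8 and 11.46 to 12.32 in rats 1 to 4.

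Lifr, the cytokine receptor, was the only member with a negative difference. In denervated muscle its values ran from 4.70 to 9.69 with a median of 8.30, against 7.37 to 9.88 with a median of 9.19 in control muscle. The groups overlapped, and the low end in denervated muscle was 1 array, that of rat 8, with the next value at 8.01. The means were 8.13 ± 1.50 in denervated and 8.76 ± 1.04 in control muscle (SD, n = 8 each). The difference of -0.62 had a 95% interval of -1.61 to 0.36 (limma, SE 0.49, adjusted p = 0.532). Without denervated rat 8 the difference was -0.13, with an interval of -1.0 to 0.73 (adjusted p = 0.923), and the SD in denervated muscle was 0.63. After centring the difference was -0.83 (interval -1.89 to 0.22, adjusted p = 0.430), and -0.32 without denervated rat 8. With a common floor the deposited difference was -0.38 (adjusted p = 0.752), and the sign was negative under all alternatives run.

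Socs3, the feedback inhibitor of the same pathway, had the smallest difference. It ran from 7.94 to 9.04 with a median of 8.25 in denervated muscle, against 6.63 to 8.74 with a median of 8.14 in control muscle. The denervated values lay almost wholly within the control range, with only rat 4 above it. The means were 8.30 ± 0.35 in denervated and 7.94 ± 0.78 in control muscle (SD, n = 8 each). The difference of 0.36 had a 95% interval of -0.48 to 1.19 (limma, SE 0.42, adjusted p = 0.709). The 2 lowest control values were those of rat 6, at 6.63, and rat 1, at 7.09. Without control rat 6 the difference was 0.17 (interval -0.55 to 0.90), and after centring it was 0.15 (interval -0.57 to 0.87, adjusted p = 0.867). Centred values in rats 5 to 8 alone gave -0.04, so the sign of the Socs3 difference was not settled.

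Grb14, the inhibitor of the insulin receptor, had the largest difference of the 4. Its values ran from 9.70 to 12.32 with a median of 10.83 in denervated muscle, against 8.29 to 11.66 with a median of 9.77 in control muscle. Denervated values were split into a low band in rats 5 to 8 and a high band in rats 1 to 4, while 4 of 8 control values lay below the low band, 2 between the bands and 1 in each band. The means were 10.90 ± 1.03 in denervated and 9.93 ± 1.18 in control muscle (SD, n = 8 each). The difference of 0.98 had a 95% interval of 0.10 to 1.85 (limma, SE 0.43, unadjusted p = 0.0289, adjusted p = 0.205). By exact permutation the unadjusted p was 0.101. Without control rat 6 the difference was 0.74 (adjusted p = 0.375), after centring 0.77 (interval -0.17 to 1.71, adjusted p = 0.402) and after quantile normalisation 0.31 (interval -0.37 to 0.98, adjusted p = 0.687).

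The fit with the 2 sets of rats, 1 to 4 and 5 to 8, as a block gave Grb14 the same difference with a smaller error (limma, SE 0.33, interval 0.32 to 1.64), and there it passed (adjusted p = 0.0418). That fit called 11.1% of all probes. After centring the blocked fit gave 0.77 (interval 0.14 to 1.39) and the call was lost (limma, adjusted p = 0.112), where 9.95% of all probes passed. Within rats 1 to 4 Grb14 differed by 1.30 (interval 0.32 to 2.27, adjusted p = 0.219), and within rats 5 to 8 by 0.66 (interval -0.15 to 1.47, adjusted p = 0.323). On centred values these were 1.38 and 0.16. The change of the difference between the sets was not tested. In rats 1 to 4 the control array of rat 1, at 8.64, lay well below the other 3, which ran from 10.84 to 11.66.

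Thra, the thyroid hormone receptor, was less spread in denervated than in control muscle. It ran from 8.92 to 10.04 with a median of 9.22 in denervated muscle, against 5.69 to 9.78 with a median of 9.01 in control muscle. All denervated values fell within a little over 1 log unit, and the control range was widened by 1 array, that of rat 6, with the next value at 8.58. The means were 9.36 ± 0.43 in denervated and 8.71 ± 1.28 in control muscle (SD, n = 8 each). Without rat 6 the control mean was 9.14 ± 0.40, close to the SD of denervated muscle. The difference of 0.65 had a 95% interval of -0.18 to 1.47 (limma, SE 0.41, adjusted p = 0.410). It was 0.22 without control rat 6 (interval -0.37 to 0.80, adjusted p = 0.738) and 0.44 after centring (interval -0.29 to 1.17, adjusted p = 0.558). After quantile normalisation it was 0.33 (adjusted p = 0.618), and with array weights 0.30 (adjusted p = 0.644). On control rat 6 Thra lay 1.29 below the array median, while on the other 15 arrays it lay 0.19 to 1.86 above it.

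**Figure D2:**
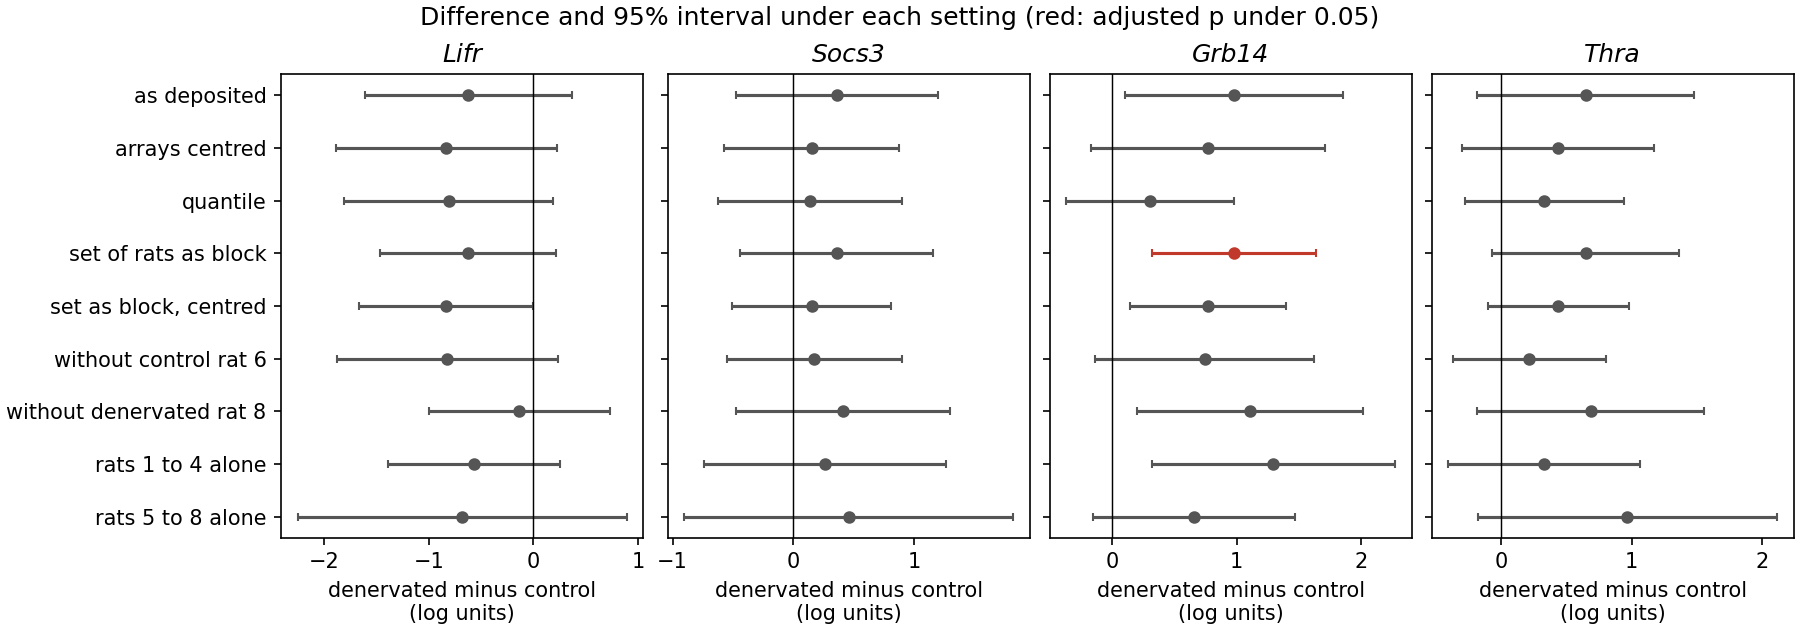
Difference of denervated minus control muscle (points, log units) with its 95% interval from limma (bars) for the 4 genes under 9 settings, from the values as deposited to fits of each set of rats alone; red marks an adjusted p under 0.05. Grb14 with the set of rats as a block (0.98, interval 0.32 to 1.64) is the only red point, and the Lifr point moves to -0.13 without denervated rat 8.

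The means of the members lay farther apart between sets of rats than between denervated and control muscle, without a test of either against the other. The rat numbers come from the labels, which do not call rats 1 to 4 or rats 5 to 8 a batch. Averaged over both groups, Lifr stood at 7.67 in rats 5 to 8, against 9.22 in rats 1 to 4, a difference of -1.55. Grb14 stood at 9.64 in rats 5 to 8, against 11.19 in rats 1 to 4, also a difference of -1.55. Thra averaged 8.52 in rats 5 to 8, against 9.54 in rats 1 to 4. Socs3 differed least, with 7.86 in rats 5 to 8, against 8.38 in rats 1 to 4. Over all probes the median of this difference was -0.18, and 26 of 1176 probes were lower than Lifr and 27 lower than Grb14, against 126 for Thra and 377 for Socs3. The Lifr mean in rats 5 to 8 includes denervated rat 8, at 4.70, and the rank of Lifr without that array was not taken. The Lifr medians were 7.83 in rats 5 to 8 and 9.19 in rats 1 to 4, and within control muscle the means differed by -1.49. After centring the differences between sets were -1.68 for Lifr and for Grb14, -1.15 for Thra and -0.65 for Socs3, with a median of -0.31 over all probes.

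As deposited, all denervated arrays of rats 5 to 8 lay below all those of rats 1 to 4 for Grb14 and Thra, not for Lifr and Socs3, and none of the 4 genes separated in this way in control muscle. The share of all probes that separated as deposited was not taken, so how common such a separation was on that scale is not known here. After centring, each of the 4 genes separated in denervated muscle. Array medians in denervated muscle ran from 8.48 to 8.60 in rats 5 to 8, against 7.97 to 8.20 in rats 1 to 4, so centring itself widens the gap. After centring, such a separation in this direction was shown by 16.6% of all probes in denervated muscle. In control muscle Lifr and Thra separated after centring, where 13.1% of all probes did. For Thra the band was narrow in denervated rats 5 to 8, where centred values ran from 0.42 to 0.60, against 1.32 to 1.86 in denervated rats 1 to 4. Centred Grb14 ran from 1.10 to 1.73 in denervated rats 5 to 8, against 3.39 to 4.34 in denervated rats 1 to 4. Centred Lifr ran more widely, from -3.79 to -0.23 in denervated rats 5 to 8, against -0.12 to 1.49 in denervated rats 1 to 4. The floor moved with the set in denervated muscle. It lay at 2.51 to 4.08 on 22 to 61 probes in rats 5 to 8, against 4.99 to 5.93 on 95 to 139 probes in rats 1 to 4. The part of the floor in these bands was not tested.

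The values of Socs3 and Grb14 moved together over the arrays. Pearson's r of their centred values was 0.86 over 16 arrays (permutation adjusted p = 0.00024 over the 6 pairs of members), and Spearman's rho was 0.78 (permutation adjusted p = 0.0039). Without the 2 arrays whose Socs3 values lay farthest from the median, r was 0.78. It was 0.88 within denervated and 0.88 within control muscle (n = 8 each, exact permutation adjusted p = 0.0207 and 0.0302). Within the sets of rats the relation did not pass. In rats 5 to 8 r was 0.06 (n = 8, exact permutation adjusted p = 0.987). In rats 1 to 4 it was 0.83 (n = 8, exact permutation adjusted p = 0.171) and turned to -0.56 without 2 arrays, so there it rested on those arrays. The probes of Socs3 and Grb14 have consecutive numbers on the membrane design. Over 869 pairs of consecutive probes the median r was 0.04, and over all 557040 pairs it was 0.03. An r of at least that of Socs3 and Grb14 was found in 5 and 1550 of these pairs.

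Grb14 and Thra also varied together over the 16 arrays, with an r of 0.67 (permutation adjusted p = 0.00873) and a rho of 0.73 (permutation adjusted p = 0.00633), and r was 0.61 without 2 arrays. The r was 0.88 in denervated and 0.46 in control muscle (n = 8 each, exact permutation adjusted p = 0.0699 and 0.523). Among rats 5 to 8 it was 0.20, and among rats 1 to 4 it was 0.43 (n = 8 each, exact permutation adjusted p = 0.987 and 0.852), so this relation did not pass within sets either. The rho in rats 1 to 4 was 0.62 (n = 8, exact permutation adjusted p = 0.665), and 8 arrays cannot show that a relation is absent. Socs3 with Thra had an r of 0.47 (permutation adjusted p = 0.133) and a rho of 0.62 (permutation adjusted p = 0.0228). Within rats 5 to 8 the r of Socs3 with Thra was 0.0074 and within rats 1 to 4 it was 0.0041 (n = 8 each), so this relation was not seen within sets. The 3 pairs that include Lifr had r between 0.29 and 0.40, and none passed over the 16 arrays. Within denervated muscle Lifr with Socs3 had a rho of 0.88 (n = 8, exact permutation adjusted p = 0.0435) and an r of 0.63 (n = 8, exact permutation adjusted p = 0.128), while within rats 5 to 8 their r was -0.10 and within rats 1 to 4 it was 0.02.

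**Figure D3:**
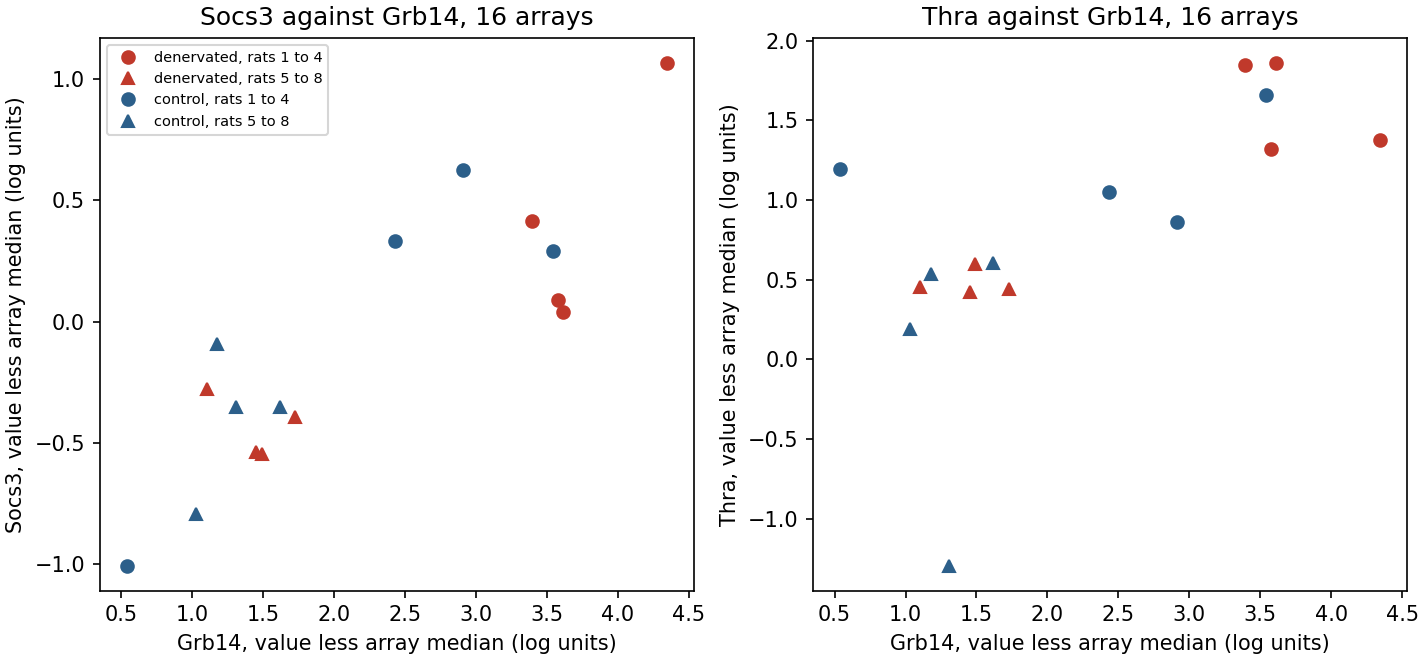
Socs3 against Grb14 (left) and Thra against Grb14 (right), each as the value less the array's median in log units, 1 point per array; red is denervated and blue control muscle, circles are rats 1 to 4 and triangles rats 5 to 8. The triangles form 1 tight cloud at Grb14 between 1.03 and 1.73, with control rat 6 below it for Thra (-1.29), and the circles, apart from control rat 1 at 0.54, lie at Grb14 above 2.4.

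The genes whose centred values were most like each member were ranked by Pearson's r over the 16 arrays, among 1003 probes with 1 gene that were at the floor on no more than 4 arrays. All points share the split between the sets of rats, so these values are descriptions. For Grb14 they were Pard3, a cell polarity protein, at 0.96, Ap2a2, a clathrin adaptor subunit, at 0.94 and Smad9, a transcription factor of the bone morphogenetic protein pathway, at 0.91. For Thra they were Errfi1, an inhibitor of the epidermal growth factor receptor, at 0.94, Gucy2g, a guanylate cyclase, at 0.91 and Ucn, the peptide urocortin, at 0.90. For Socs3 they included Ap2a2 at 0.87 and Grb14 itself at 0.86. For Lifr they were Pfkfb2, a kinase that sets a glycolytic activator, at 0.77, Snrpn, a splicing protein, at 0.77 and Akap1, an anchor of protein kinase A at mitochondria, at 0.73. Without the 2 arrays farthest from the median of Lifr, Pfkfb2 dropped to 0.33, while Snrpn stayed at 0.80. The probes of Gucy2g and Ucn, like those of Socs3 and Grb14, have consecutive numbers. None of these 9 further genes passed between denervated and control muscle in limma.

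Of the pathway genes around the members, none passed in limma either. Of 32 listed genes of the LIF, interleukin-6 and gp130 pathway, 6 were measured, including Lifr and Socs3. None of the 6 passed in limma (6.29% of all probes did), 1 had an unadjusted p under 0.05 (17.9% of all probes) and none passed by exact permutation (5.7% of all probes), so the counts lay near those shares. The median difference was 0.46, where that of all probes was 0.22, and 0.25 after centring, where that of all probes was 0.01. Pias3, an inhibitor of STAT3, ran from 8.45 to 9.89 in denervated muscle, against 7.43 to 9.39 in control muscle, and differed by 0.85 (limma, interval 0.11 to 1.58, adjusted p = 0.181) and by 0.64 after centring (adjusted p = 0.265). Cardiotrophin 1 (Ctf1), a cytokine that signals through the LIF receptor, differed by 0.74 (interval -0.25 to 1.74, adjusted p = 0.437). The feedback inhibitor Socs2 differed by 0.05 (interval -0.70 to 0.80) and the transcription factor Stat5a by 0.56 (interval -0.36 to 1.47). Il9r, the only other class I cytokine receptor measured of 18 listed, differed by 0.15 (limma, adjusted p = 0.906) and did not pass by exact permutation either.

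In insulin and IGF signalling 6 of 45 listed genes were measured, including Grb14. None passed in limma, 1 had an unadjusted p under 0.05 and none passed by exact permutation, where 6.29%, 17.9% and 5.7% of all probes did. The median difference was 0.68, and 0.47 after centring. Pdpk1, the kinase that activates Akt, differed by 0.83 (interval -0.04 to 1.70, adjusted p = 0.310). Rps6kb1, a kinase of ribosomal protein S6, differed by 0.67 (interval -0.25 to 1.60, adjusted p = 0.450). The insulin receptor substrates Irs2 and Irs3 stood at 0.23 and 0.69, and the insulin gene Ins1 at -0.35. With the sets of rats as a block Grb14 was the only member of this list that passed.

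Among thyroid hormone receptors, partners and hormone handling, 5 of 25 listed genes were measured, including Thra. None passed in limma or by exact permutation and none had an unadjusted p under 0.05, where 6.29%, 5.7% and 17.9% of all probes did. With so few genes, no call is close to those shares. The median difference was 0.30, or 0.09 after centring. Nr1d2, a nuclear receptor related to Rev-erb alpha, differed by 0.60 (interval -0.35 to 1.55, adjusted p = 0.532). The deiodinases Dio2, which activates thyroid hormone, and Dio3, which inactivates it, differed by -0.43 (interval -1.50 to 0.65) and 0.30 (interval -0.83 to 1.43). Of 31 listed other nuclear receptors 8 were measured, and none passed in limma or by exact permutation or had an unadjusted p under 0.05, where the same shares of all probes did. Their median difference was 0.19, or -0.02 after centring, and Rorb, Nr1h2 and Nr0b1, the 3 with the lowest p, stood at 0.80, 0.53 and -0.64. On 3 control arrays each, Rorb and Nr0b1 were at the floor.

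Of 18 listed targets of thyroid hormone 4 were measured. None passed in limma, 1 had an unadjusted p under 0.05 and 1 passed by exact permutation, where 6.29%, 17.9% and 5.7% of all probes did. With 4 genes, 1 call is close to the unadjusted share. The median difference was 0.69, and 0.48 after centring. The gene with both calls was Thrsp, known as Spot 14, a thyroid-responsive nuclear protein of fat synthesis. It ran from 9.13 to 9.90 with a median of 9.28 in denervated muscle, against 6.68 to 9.26 with a median of 8.53 in control muscle. The groups overlapped only narrowly. Thrsp differed by 1.04 (limma, SE 0.38, interval 0.28 to 1.80, adjusted p = 0.0942), and its adjusted p was 0.0410 by exact permutation. With the sets of rats as a block it passed as deposited (limma, adjusted p = 0.0408) and after centring (limma, 0.83, adjusted p = 0.0454), but not after centring without a block (adjusted p = 0.133) or after quantile normalisation (adjusted p = 0.142). Myh6, the alpha form of cardiac myosin heavy chain, differed by 1.22 (interval -0.05 to 2.50, adjusted p = 0.300), and probes of this kind can bind transcripts of other myosins. The phosphoprotein Pln, which restrains the calcium pump, and the mitochondrial enzyme Gpd2 stood at -0.32 and 0.33.

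**Figure D4:**
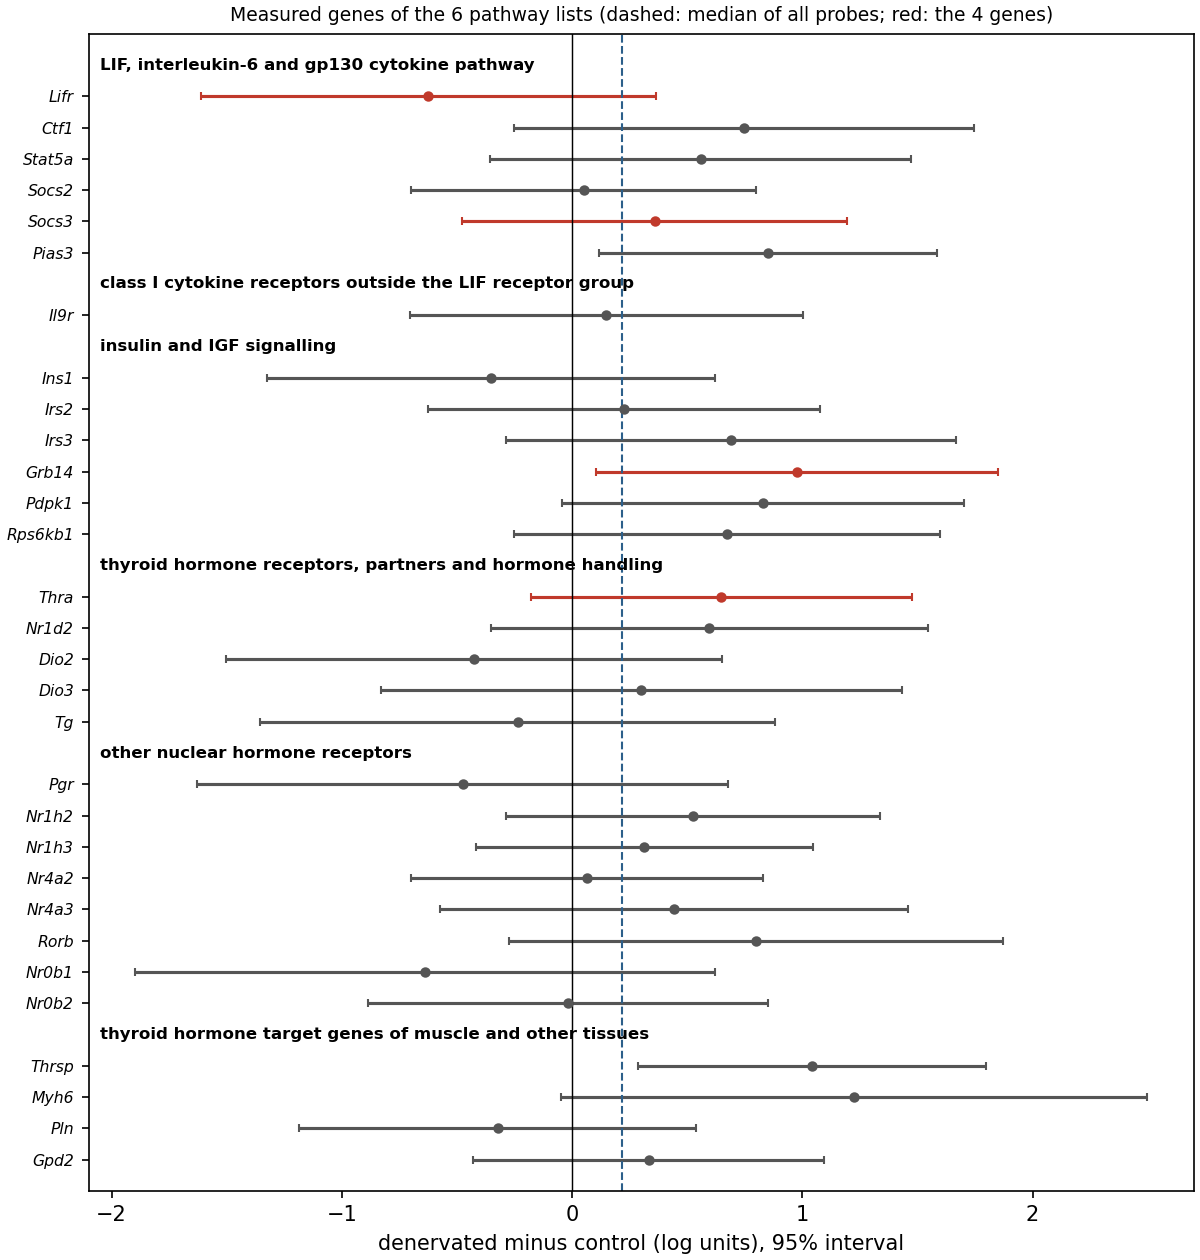
Difference of denervated minus control muscle (log units) with its 95% interval from limma for each measured gene of the 6 pathway lists, as deposited; red marks Lifr, Socs3, Grb14 and Thra, the solid line is 0 and the dashed line the median of all probes (0.22). All but Pias3, Grb14 and Thrsp have an interval that includes 0.

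The 3 measured fibroblast and matrix markers (Dcn, Bgn and S100a4) rose in denervated muscle as deposited. Dcn missed the threshold after centring (limma, adjusted p = 0.0782) and after quantile normalisation (0.39, limma adjusted p = 0.180). The mean of the 3 markers per array ran from 11.00 to 12.10 in denervated muscle, against 7.49 to 10.24 in control muscle. Of all probes 6.29% passed in limma as deposited, 17.9% had an unadjusted p under 0.05 and 11.1% passed with the sets of rats as a block. Of 3 macrophage and leukocyte markers none passed in limma (2 at an unadjusted p under 0.05). With the sets of rats as a block, the fit in which Grb14 passed, C1qb and Cd48 passed (limma, adjusted p = 0.0324 and 0.0346). The means of these 3 markers per array ran from 9.22 to 9.92 in denervated and 7.36 to 9.83 in control muscle. Of 6 Schwann cell and nerve markers 1 rose as deposited (Nefm). It missed the threshold after centring (limma, adjusted p = 0.126) and after quantile normalisation (0.85, limma adjusted p = 0.296). Nefl stood at 0.12 and Nefh at -0.47, and 5 of the 6 differences were positive. The means of the 6 markers per array ran from 7.57 to 8.76 in denervated and 5.98 to 8.43 in control muscle. Of 2 adipocyte markers 1 rose (Scd), with means of 6.52 to 9.22 in denervated and 4.97 to 7.83 in control muscle. Both markers of endothelium and smooth muscle missed the threshold, and blood markers were not measured. Of the 4 muscle markers 1 fell as deposited (Mylk2). After quantile normalisation Cacna1s (-0.79, limma adjusted p = 0.0023) and Pgam2 (-0.93, limma adjusted p = 0.0172) fell too, where 5.27% of all probes passed. As deposited these 2 stood at -0.03 and 0.15 (limma, adjusted p = 0.976 and 0.924). After centring they stood at -0.24 and -0.06 (limma, adjusted p = 0.754 and 0.969). The means of the 4 muscle markers per array ran from 10.87 to 11.79 in denervated and 10.20 to 13.50 in control muscle. The part of these cell types in the values of the 4 genes was not tested.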

How the data were processed

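The submitters' protocols name Clontech Atlas rat membranes, on which labelled cDNA was read by phosphorimaging and Array Vision. The values the authors deposited are a score on a log-like scale, scaled by linear regression per the labels. The log base, any background correction and the origin of the repeated lowest value are not stated. Of 1185 probes, 9 reference probes on another scale were left out. The platform table gave 1106 of the other 1176 a single gene, 2 several and 68 none, and 1099 gene IDs matched RefSeq (GRCr8). No pair of arrays shared over 0.085% of its values.

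Groups were tested on the log scale in R 4.3.3 by limma 3.58.1 (lmFit, eBayes with trend, two-sided), adjusted over all 1176 probes, and by exact two-sided permutation over 12870 choices of 8 of 16 arrays (smallest p 0.000155). Pairs of members were correlated with 100000 permutations, or exactly for n = 8. In a simulation of this comparison with 200 of 1176 probes altered, the fit found 19% of the shifts of 1 log unit and 79% of those of 2, and 1.01% of 99 calls were false. Its values were drawn independently for each probe and array, without a floor, a low array or a split between sets of rats. These rates therefore hold for that simpler setting only. The number of arrays and the signal above the floor limit the precision. Members, gene lists and rules (the 4 genes, up to 3 genes per list by p, the 3 most similar genes per member) were chosen with earlier results of these data known. One gene that the last rule names is not reported here. Alternatives were scaling, filters, floor, blocks, variance models and single arrays left out. Figures were drawn with matplotlib 3.10.9.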

Additional observations from a re-analysis of the deposited data

Results flagged for a closer look

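Among 16 sets of values (the 4 genes in 2 groups of 8 arrays, as deposited and after centring), 3 values lay farther from their group than Dixon's 95% limit for the gap over the range. Chance flags about 1 in 20 groups. Lifr on denervated rat 8 was 4.70 as deposited (gap over range 0.663) and -3.79 after centring (0.628), where the next value was 8.01 as deposited and -0.47 after centring. Thra on control rat 6 was 5.69 as deposited (0.707), with the next value at 8.58.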

How the results depend on the processing

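Lifr and Thra kept their sign and missed the threshold under all alternatives run, and Grb14 kept its sign and passed only with the sets of rats as a block (0.98, adjusted p = 0.0418). Leaving out single arrays gave -0.85 to -0.13 for Lifr, 0.17 to 0.47 for Socs3, 0.74 to 1.23 for Grb14 and 0.22 to 0.80 for Thra, and after centring -1.07 to -0.32, -0.0042 to 0.26, 0.52 to 1.01 and 0.17 to 0.59. The Socs3 sign turned after centring without denervated rat 4 (-0.0042) and in rats 5 to 8 (-0.042). As deposited, Lifr moved by over 1.5 times without denervated rat 8, Thra and Socs3 without control rat 6, and Socs3 without control rat 1 (0.24).

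The 64 higher calls became 35 after centring, 35 after quantile normalisation, 34 without a mean-variance trend, 117 with the sets of rats as a block, 31 by exact permutation after centring, 18 in rats 1 to 4 (19 centred) and 131 in rats 5 to 8. The 10 lower calls became 27 after quantile normalisation, 5 in the brighter probes, 4 with a common floor, 20 with array weights, 26 with the sets as a block after centring and 22 in rats 5 to 8 after centring. Single arrays left out gave 35 to 86 higher and 5 to 14 lower calls, and after centring 27 to 59 and 9 to 20. As deposited, the higher calls moved by over 1.5 times without denervated rat 1 (35), 4 (42) or 6 (41) and without control rat 7 (40) or 8 (41), and the lower calls without denervated rat 6 (5) or 8 (6) and without control rat 5 (6) or 7 (5). The cause was not tested. The 4 genes lay at least 1.35 above the floor, which limits how low a value could be read.

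Rat number as a replicate block gave 96 higher and 17 lower calls, and 108 and 33 after centring. Grb14 then had an adjusted p of 0.0502, and 0.0651 after centring. The deviations of same-numbered rats correlated at 0.06 to 0.19, over 0.1 in 7 of 8 pairs, and 3 of 8 denervated arrays correlated best with their own number. Denervated and control arrays within a set of rats had a median of 0.07 (-0.10 to 0.34), and those of different sets a median of -0.11. The labels do not state pairing and these values do not settle it, so the main fit was left unpaired.

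In the lists, 1 gene passed for insulin and IGF signalling with the sets as a block (Grb14), and 1 thyroid hormone target with the sets as a block (Thrsp, also after centring) and by exact permutation (Thrsp). In rats 5 to 8 alone 1 target (Myh6) and 1 gene of the LIF pathway (Pias3) passed, and after centring 1 other nuclear receptor (Nr0b1). Without centring, Socs3 with Thra had an r of 0.69 (permutation adjusted p = 0.0135), and 0.46 without 2 arrays. That scale includes the low array of control rat 6. The sets as a block after centring, exact permutation after centring and fits of each set alone were chosen after seeing the data.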
